A study of Mus musculus with 22 samples.

Results

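Nuclei carrying GFP were compared with the remaining nuclei of the lumbar dorsal horn in mice at postnatal day 21 (P21), across all genes measured by RNA sequencing. The comparison uses 6 of the 22 libraries of the series: ES11, ES13 and ES15 of GFP+ nuclei and ES12, ES14 and ES16 of GFP- nuclei, chosen by age and sorted population alone. All animals, at this age 1 female and 2 males, were of the strain pDyn-Sun1-GFP. In it a fusion of GFP with Sun1, a protein of the nuclear envelope, depends on the promoter of the prodynorphin gene Pdyn. GFP+ nuclei are called pDyn-lineage in the labels. The sources used here do not say if a nucleus keeps GFP once the promoter falls silent. GFP- nuclei are all other nuclei of the tissue, so that group mixes neurons of other kinds with glia and cells of vessels and meninges, and a transcript that is low in GFP+ nuclei may come from cells that are absent there or from cells that make less of it. Each of the 3 animals gave 1 GFP+ and 1 GFP- library of 5000 sorted nuclei, but the columns do not name the animal, and libraries were not paired. The other ages of the series, P7 and P80 with 8 libraries each, serve here only where the P21 difference is set against them.

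Prodynorphin is the precursor of the dynorphins, opioid peptides that act mainly on the kappa opioid receptor. In the dorsal horn, where signals of touch, itch and pain enter the spinal cord, dynorphin is made mostly by inhibitory interneurons, which release GABA or glycine and often a further peptide such as galanin, and in part by excitatory ones. RNA of nuclei is rich in unspliced and nuclear-retained transcripts, so its levels follow transcription more closely than those of whole cells.

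Values are read counts that the authors divided by a size factor for each library. Differences are GFP+ minus GFP- means of log2(value + 1) with the standard error from limma, and a gene was called at a Benjamini-Hochberg adjusted p under 0.05, two-sided. Values of 3 libraries are given in the order ES11, ES13 and ES15 for GFP+ nuclei and ES12, ES14 and ES16 for GFP- nuclei. The P21 libraries held 4438486 to 10849169 reads counted to genes and 20088 to 21027 genes with at least 1 read.

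The GFP- libraries differed from each other more than the GFP+ libraries did. Over the tested genes the median range of log2(value + 1) was 0.413 among GFP+ and 0.958 among GFP- libraries. ES16 stood apart: mitochondrially encoded transcripts took 1.26% of its reads, against 0.0902% to 0.102% in the other 5 libraries. Its scores, or means of log2(value + 1) over a list, were also higher for ribosomal protein genes (7.426), immediate early genes (7.218) and endothelial and mural genes (8.306), where the other 2 GFP- libraries had at most 5.884, 5.235 and 6.127. ES12 had the highest oligodendrocyte score (11.53, against 10.46 in ES14 and 9.718 in ES16) and ES14 the highest pan-neuronal score of the GFP- libraries (9.417, against 8.552 and 8.662). The Xist transcript read 31728, 161 and 74.2 in GFP+ and 41434, 105 and 3631 in GFP- libraries, while 4 Y-linked genes summed to 2153 to 3853 in ES13, ES14, ES15 and ES16 and to at most 6.81 in ES11 and ES12, so that ES16 held both kinds of transcript. Counts of called genes are therefore also given without ES16 for each neuronal list.

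**Figure D1:**
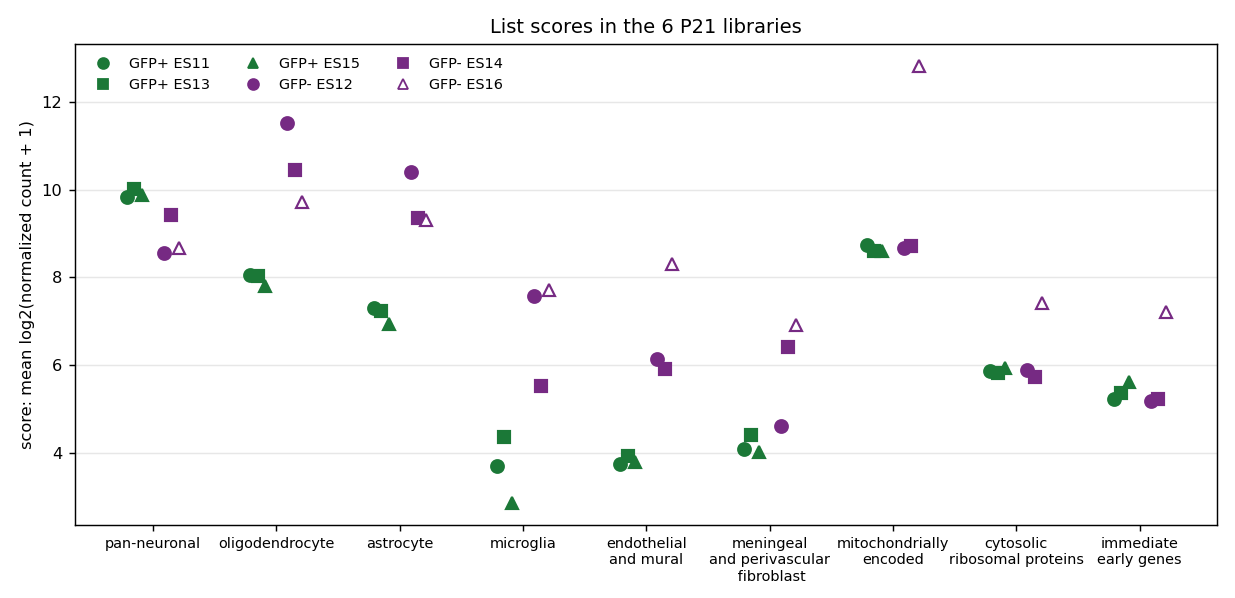
Scores of 9 gene lists (mean of log2(normalized count + 1) over the genes of a list, vertical axis) in each P21 library, GFP+ in green and GFP- in purple, with ES16 as an open triangle. The pan-neuronal score was 9.826 to 10.03 in GFP+ and 8.552 to 9.417 in GFP- libraries, and ES16 lay above the other libraries in the mitochondrial, ribosomal, immediate early and endothelial scores.

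GFP+ libraries also held transcripts of tissues outside the nervous system, in amounts that differed from library to library. For 15 genes of liver cells, a list made after these values were seen, the summed normalized count was 5459 in ES11, 2210 in ES13 and 442 in ES15, against 21.8, 22.76 and 61.81 in ES12, ES14 and ES16. Albumin (Alb) alone read 2469.9, 1268 and 155 in GFP+ and 1.98, 2.53 and 1.64 in GFP- libraries. A list of 15 genes of placental trophoblast, made in the same way, summed to 3.405 in ES11, 304.5 in ES13 and 388.9 in ES15 and to at most 2.972 in the GFP- libraries. The 4 hemoglobin genes summed to 1989 in ES11 and 1389 in ES16 and to 13.87 to 144.6 in the other 4. At the other ages the liver sum was also high in single libraries of either population, with 16720 and 6079 in 2 GFP+ libraries and 3653 in 1 GFP- library of P7 and 698.2 in 1 GFP- library of P80. The trophoblast sum at P7 was 657.7, 193.4, 0 and 417.1 in GFP+ libraries and 670.3 in 1 GFP- library. It was at most 2.773 in the other GFP- libraries of P7 and at most 23.51 at P80. Liver genes are among the highest differences described next, and the part these transcripts have in other genes' differences was not tested.

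Neuronal and inhibitory genes were higher and glial and vascular genes lower in GFP+ nuclei at P21. Of 18614 tested genes, 6128 were called (32.9%), 2727 higher (14.7%) and 3401 lower (18.3%) in GFP+ nuclei. By at least 2-fold, 1376 were higher (7.39%) and 2427 lower (13%). The 3 GFP+ and 3 GFP- values did not overlap in 7400 genes (39.8%), 3509 of them higher and 3891 lower. Without ES16, 5237 of 18461 genes were called (28.4%), 2406 higher (13%) and 2831 lower (15.3%). In all, 4459 genes were called with and without ES16, each in the same direction. A fit of only the 6 P21 libraries called 1200 genes higher and 1529 lower. Among called coding genes 2289 were higher and 3158 lower, whereas among called noncoding genes 438 were higher and 243 lower. The authors' deposited table calls 2877 genes at P21, 1148 higher and 1729 lower, of which 2789 were also called here with the same sign.

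**Figure D2:**
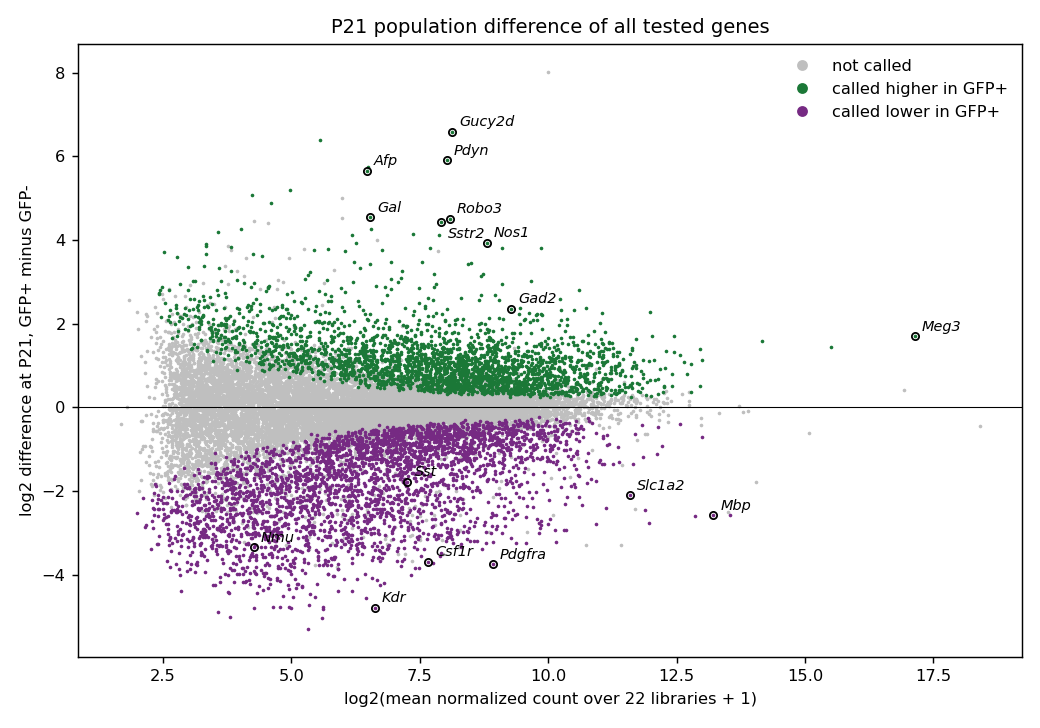
Log2 difference at P21 (GFP+ minus GFP-, vertical axis) against the log2 mean normalized count over all 22 libraries (horizontal axis) for the 18614 tested genes, with called genes in green (2727 higher) and purple (3401 lower). Gucy2d and Pdyn lie highest of the labelled genes and Kdr lowest.

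Pdyn, on whose promoter the sort rests, separated the populations in every library, with 405, 437 and 521 normalized counts in GFP+ and 2.97, 7.59 and 11.5 in GFP- nuclei. Its difference of 5.91 ± 0.71 (adjusted p = 5.43e-06) was built into the sort. Gucy2d exceeded it, at 784, 645 and 689.6 in GFP+ against 4.95, 16.4 and 2.73 in GFP- libraries. In the mouse Gucy2d encodes a receptor guanylyl cyclase best known from a small class of olfactory neurons. No GFP- library came near the GFP+ libraries for this gene, and its difference was 6.60 ± 0.49 (adjusted p = 2.1e-08). An olfactory receptor gene, Olfr920, followed a like pattern at 230.4, 212 and 204 against 2.97, 21.5 and 14.8 (4.27 ± 0.61, adjusted p = 2.8e-05).

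Guidance, peptide and signaling genes filled most of the other top places. Robo3, a guidance receptor of commissural axons, read 465, 476 and 607 in GFP+ and 18.8, 25.3 and 20.8 in GFP- nuclei, a difference of 4.51 ± 0.39 (adjusted p = 1.21e-07). Sstr2, a receptor for somatostatin, read 471, 447 and 482 against 14.9, 32.9 and 18 and differed by 4.43 ± 0.26 (adjusted p = 4.49e-10). The populations did not overlap for either gene, and ES14 was the highest GFP- library for Sstr2. Gal, which encodes the peptide galanin, read 129, 152 and 171 against 12.9, 6.32 and 1.64 (4.55 ± 0.53, adjusted p = 3.4e-06), and Pnoc, the precursor of the opioid-like peptide nociceptin, 246, 261 and 309 against 8.92, 17.7 and 18.6 (4.14 ± 0.48, adjusted p = 3.47e-06). Nos1, the neuronal nitric oxide synthase, stood at 817, 961 and 880.0 against 34.7, 83.5 and 62.9 (3.94 ± 0.32, adjusted p = 6.12e-08). All 6 libraries of each of these genes fell into 2 separate bands. Pax8, a transcription factor gene of dorsal inhibitory interneurons, read 919, 924 and 997 against 24.8, 128 and 92.4 (3.81 ± 0.43, adjusted p = 3.41e-06), and the collagen gene Col6a6 303, 198 and 299 against 2.97, 26.6 and 30.6 (4.12 ± 0.62, adjusted p = 5.28e-05). Without ES12, the GFP- library with the lowest value of each, Olfr920, Col6a6 and Pax8 were at 3.52, 3.15 and 3.11. Gucy2d was at 7.22 without ES14 and Gal at 3.90 without ES16, and every gene of this and the preceding paragraph was called without any 1 library. The gene Gm13415 overlaps Pax8 on the opposite strand, Gm26995 overlaps Nos1 and Slc39a11 overlaps Sstr2 in the same way, and the sources used here do not state if strand was used in counting, so reads of such pairs may be mixed.

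The remaining 2 of the 12 highest differences belong to liver genes. Afp, or alpha-fetoprotein, read 1287, 62.4 and 80.2 in GFP+ and 1.98, 1.26 and 6.56 in GFP- libraries, and Ahsg, a plasma glycoprotein gene, 397, 130.3 and 31.1 and 0, 0 and 9.85. ES11 was far above the other GFP+ libraries for both. Afp (adjusted p = 0.0287) was not called without ES11, ES12, ES14 or ES16, with adjusted p up to 0.135, and Ahsg (adjusted p = 0.0444) not without ES11, ES12, ES13 or ES14, with adjusted p up to 0.139. The differences ranged from 4.27 to 6.45 for Afp and from 4.87 to 6.89 for Ahsg over these settings, with moves of more than 1.5-fold without ES11 or ES15 for both, without ES13 for Afp and without ES16 for Ahsg. Genes at 10 or more in each GFP+ library and at 0 in each GFP- library numbered 3 and were the liver genes Serpina1b (133, 88.7 and 49.1) and Fgb (126, 35 and 10), and Gm24604 (14.8, 12 and 10). Serpina1b overlaps and resembles its neighbor Serpina1d, so its reads are uncertain. Serpina1b and Fgb were not called once ES11, ES12, ES13, ES14 or ES16 was left out, nor Serpina1b without ES15. The reverse held for Gm8995 alone, with 0 reads in each GFP+ library and 20.8, 10.1 and 37.7 in the GFP- libraries.

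**Figure D3:**
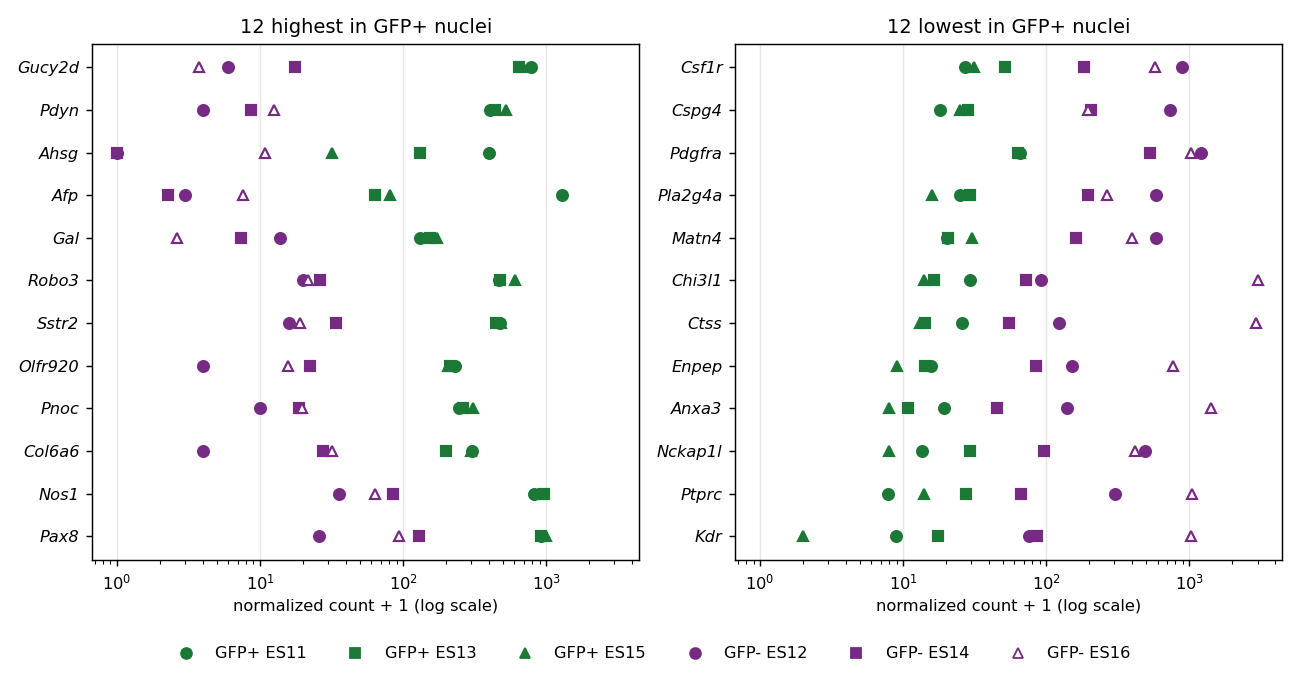
Normalized counts + 1 on a log axis in each P21 library for the 12 genes with the highest (left) and lowest (right) differences among called genes of at least median expression whose groups did not overlap. GFP+ libraries are green and GFP- libraries purple, with ES16 as an open triangle: for Chi3l1 and Ctss it reads 3001 and 2918, where the other GFP- libraries read at most 122.

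The sequences before the start sites of 4 of the highest genes are shown because the sort itself rests on one of them, the Pdyn promoter. They are the 250 bases upstream of the RefSeq start in GRCm38.p6, written 5′ to 3′ on the strand of the gene. Capitals mark a cyclic AMP response element, TGACGTCA, which is its own reverse complement, or the homeodomain core TAATTA, also its own reverse complement. The regions are chr2:129699939-129700188, minus strand, for Pdyn, chr7:98440166-98440415, plus strand, for Gucy2d, chr11:113619077-113619326, plus strand, for Sstr2, and chr9:37433176-37433425, minus strand, for Robo3.
Pdyn: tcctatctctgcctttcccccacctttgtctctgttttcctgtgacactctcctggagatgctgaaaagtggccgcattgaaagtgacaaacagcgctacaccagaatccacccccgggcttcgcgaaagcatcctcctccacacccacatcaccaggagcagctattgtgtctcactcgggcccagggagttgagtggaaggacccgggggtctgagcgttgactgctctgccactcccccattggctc
Gucy2d: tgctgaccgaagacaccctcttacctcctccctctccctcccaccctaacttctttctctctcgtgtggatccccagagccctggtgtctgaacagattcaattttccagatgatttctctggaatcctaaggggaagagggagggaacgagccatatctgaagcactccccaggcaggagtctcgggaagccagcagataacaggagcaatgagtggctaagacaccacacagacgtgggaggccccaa
Sstr2: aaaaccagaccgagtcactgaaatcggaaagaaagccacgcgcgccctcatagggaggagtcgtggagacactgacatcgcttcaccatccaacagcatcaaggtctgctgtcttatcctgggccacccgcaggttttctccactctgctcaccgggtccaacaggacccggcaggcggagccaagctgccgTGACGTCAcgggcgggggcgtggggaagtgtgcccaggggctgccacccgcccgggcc
Robo3: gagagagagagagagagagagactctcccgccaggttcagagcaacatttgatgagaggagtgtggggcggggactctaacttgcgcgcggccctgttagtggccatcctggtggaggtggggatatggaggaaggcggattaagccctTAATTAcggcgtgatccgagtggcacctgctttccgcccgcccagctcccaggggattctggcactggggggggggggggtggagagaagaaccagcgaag
The windows of 9 genes named above were searched, and only Sstr2 and Robo3 held a match. The response element was found in Sstr2, with its first base at position -58 from the start, and the homeodomain core in Robo3, at position -101. Of 32851 RefSeq promoters of the same length, 508 (1.55%) hold TGACGTCA and 1590 (4.84%) hold TAATTA. The windows of Pdyn, Gucy2d, Gal, Nos1, Pax8, Col6a6 and Olfr920 hold neither motif. Pdyn has 2 RefSeq starts, of which the first in the table is shown, and the window of the second holds neither motif. The motifs and genes were chosen with the values known, and a match of letters is no measure of binding.

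Genes of the inhibitory transmitter phenotype were higher in GFP+ nuclei. Of 8 such genes 6 rose and 1 fell, with a median difference of 1.3, where the median of all tested genes was -0.067. Without ES16, 5 rose and 1 fell, with a median of 1.21. Gad1 and Gad2, the enzymes that make GABA, read 1199.8, 1153 and 1317 against 175, 516 and 259 and 807, 1002 and 1015 against 94.1, 341 and 187. ES12 was the lowest and ES14 the highest GFP- library for both, and the populations did not overlap. The differences were 2.09 ± 0.31 (adjusted p = 4.34e-05) and 2.36 ± 0.32 (adjusted p = 1.65e-05). Slc32a1, the vesicular transporter shared by GABA and glycine, was higher by 2.29 ± 0.37 (adjusted p = 9.2e-05). Slc6a5, the glycine transporter of glycinergic neurons, stood at 1014, 1132 and 962 against 134, 597 and 342 (1.78 ± 0.49, adjusted p = 0.00944), and it was not called without ES12 (1.19, adjusted p = 0.0717). The member that fell was Slc6a9, the glycine transporter known mainly from astrocytes, at -1.74 ± 0.33 (adjusted p = 0.000462). The count of higher members was 4 to 6 when any 1 library was left out.

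Transcription factors of inhibitory dorsal horn lineages were higher in 10 of 15 tested members and lower in 2, with a median of 1.42 (9 and 2 without ES16, median 0.99). Of all tested genes 14.7% were higher and 18.3% lower, so the share of lower members was not above the background. Beside Pax8, the highest were Prdm8 at 133, 122 and 117 against 7.93, 13.9 and 13.1 (3.34 ± 0.38), the corepressor gene Skor1 at 383, 272 and 397 against 30.7, 49.3 and 32.8 (3.20 ± 0.31) and Tfap2a at 62.4, 80 and 99.2 against 3.96, 20.2 and 16.4 (2.71 ± 0.46, or 2.06 without ES12). No GFP- library reached a GFP+ library in any of the 3, and their adjusted p were 2.93e-06, 3.25e-07 and 0.000135. The 2 lower members were Zfhx3, at 367, 453 and 399.9 against 831, 531 and 553 (-0.62 ± 0.18, adjusted p = 0.00922), and Skor2, at 3.41, 17.5 and 20 against 28.7, 44.3 and 29 (-1.52 ± 0.46, adjusted p = 0.0145). Zfhx3 was not called without ES12 (adjusted p = 0.0718), nor Skor2 without ES11 (-0.80, adjusted p = 0.133).

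Of 16 markers of inhibitory dorsal horn subtypes, 10 were higher and 1 lower, with a median of 1.84 (10 and 1 without ES16). Galanin, nociceptin, nitric oxide synthase and Sstr2 mark populations that overlap with dynorphin neurons in the superficial dorsal horn, and they are the members described above. Other inhibitory populations are marked by Npy, Pvalb and Calb2, and none of these passed with all 6 libraries. Npy read 23.8, 36.1 and 27.1 against 2.97, 34.1 and 15.3 (1.17 ± 0.58, adjusted p = 0.128), Pvalb 11.4, 7.67 and 3.01 against 3.96, 7.59 and 4.92 (0.25 ± 0.61, adjusted p = 0.779) and Calb2 44.3, 48.2 and 57.1 against 90.2, 84.7 and 56.9 (-0.60 ± 0.31, adjusted p = 0.148). The groups overlapped in each. The member that fell was Tnr, a matrix glycoprotein gene also made by oligodendrocytes, at -1.47 ± 0.25 (adjusted p = 0.000143). Without ES14, Npy was at 1.88 and was called higher (adjusted p = 0.011), and without ES12 it was at 0.31 and was not (adjusted p = 0.681).

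The opioid system was higher in 7 of 8 tested members and lower in none, with a median of 1.85 (6 and 0 without ES16). These counts and the median include Pdyn, whose difference was built into the sort. Penk, the enkephalin precursor, read 782, 998 and 938 against 212, 357 and 193 (1.88 ± 0.25, adjusted p = 1.53e-05). Among receptors, Oprk1, which binds dynorphin, stood at 435, 457 and 432 against 48.5, 183 and 115 (2.12 ± 0.39, adjusted p = 0.000326). The mu receptor gene Oprm1 was at 261, 256 and 232 against 74.3, 142 and 77.1 (1.41 ± 0.31, adjusted p = 0.00144), so that every GFP+ library lay above every GFP- library for these genes. The delta receptor gene Oprd1 was higher by 1.83 ± 0.46 (adjusted p = 0.0042, 1.24 without ES12) and the nociceptin receptor gene Oprl1 by 0.97 ± 0.28 (adjusted p = 0.0101). Oprl1 was not called without ES12 (adjusted p = 0.0574) or ES16 (adjusted p = 0.0622).

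Of 20 tested genes of the excitatory phenotype 9 were higher and 4 lower, with a median of 0.481 (8 and 4 without ES16). Of all tested genes 14.7% were higher and 18.3% lower, so the share of lower members was near the background. Slc17a6, the vesicular glutamate transporter of most excitatory spinal neurons, read 604, 768 and 637 against 371, 639.8 and 355, and ES14 lay inside the GFP+ range. Its difference of 0.60 ± 0.21 (adjusted p = 0.0287) was not called without ES12, ES13, ES15 or ES16, with adjusted p up to 0.131. The transcription factor genes Neurod2 (81.7, 73.4 and 97.2 against 1.98, 10.1 and 6.56, 3.75 ± 0.51), Neurod6 (51.1, 36.1 and 38.1 against 0, 13.9 and 6.02, 3.17 ± 0.61) and Pou4f1 (132, 179.6 and 159 against 11.9, 45.5 and 14.2, 2.91 ± 0.41) were higher, with adjusted p of 1.47e-05, 0.000526 and 2.05e-05. Neurod6, near the floor in GFP- nuclei, was at 2.05 without ES12 and 3.997 without ES14. Maf (136, 145 and 138 against 371, 360.4 and 349, -1.36 ± 0.18), Ebf2 (-1.25 ± 0.26) and Mafa (-2.22 ± 0.61) were among the lower members. Maf and Ebf2 had adjusted p of 1.5e-05 and 0.0008. Mafa read 5.68, 0 and 0 against 14.9, 5.06 and 6.02 and was not called without ES13 or ES15 (adjusted p up to 0.0523), and it stood at -3.13 without ES11.

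Markers of excitatory dorsal horn subtypes were lower in 11 of 21 tested members and higher in 5, with a median of -0.87 (10 and 4 without ES16, and 3 higher without ES12). The lowest were the neuropeptide genes Nmu, of neuromedin U, at 1.14, 3.29 and 2 against 33.7, 30.3 and 25.7 (-3.35 ± 0.46, adjusted p = 1.64e-05), and Nts, of neurotensin, at 3.41, 14.2 and 13 against 101, 87.2 and 62.9 (-3.09 ± 0.41, adjusted p = 1.18e-05). Sst, which encodes somatostatin, read 51.1, 55.9 and 91.2 against 224, 269 and 179.9 (-1.78 ± 0.27, adjusted p = 4.31e-05). All GFP- libraries lay above the GFP+ libraries for the 3 peptides, as they did for Grp (6.81, 6.57 and 6.01 against 36.7, 21.5 and 21.9), whose difference of -1.85 ± 0.69 (adjusted p = 0.0451) was not called once any 1 of the 6 libraries was left out. Tac1 and Tac2, which encode substance P and neurokinin B, read 81.7, 118 and 113 against 36.7, 138 and 65.6 and 78.3, 82.1 and 71.2 against 90.2, 104 and 32.3, with overlap and adjusted p of 0.21 and 0.681. Without ES14, the highest GFP- library for it, Tac1 was called higher at 1.05 (adjusted p = 0.0082). Their receptors differed: Tacr3 was at 376, 335 and 353 against 59.4, 70.8 and 67.3 (2.41 ± 0.22, adjusted p = 2.39e-07) and Tacr1 at 115, 171 and 145 against 24.8, 73.3 and 49.2 (1.64 ± 0.44, adjusted p = 0.00708), and without ES12 Tacr1 was not called (adjusted p = 0.0503). Other higher members included Npy1r (0.96 ± 0.21, adjusted p = 0.00155) and Gpr83 (1.25 ± 0.41, adjusted p = 0.0232). Gpr83 was not called without any 1 of ES11, ES12, ES13, ES15 and ES16.

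**Figure D4:**
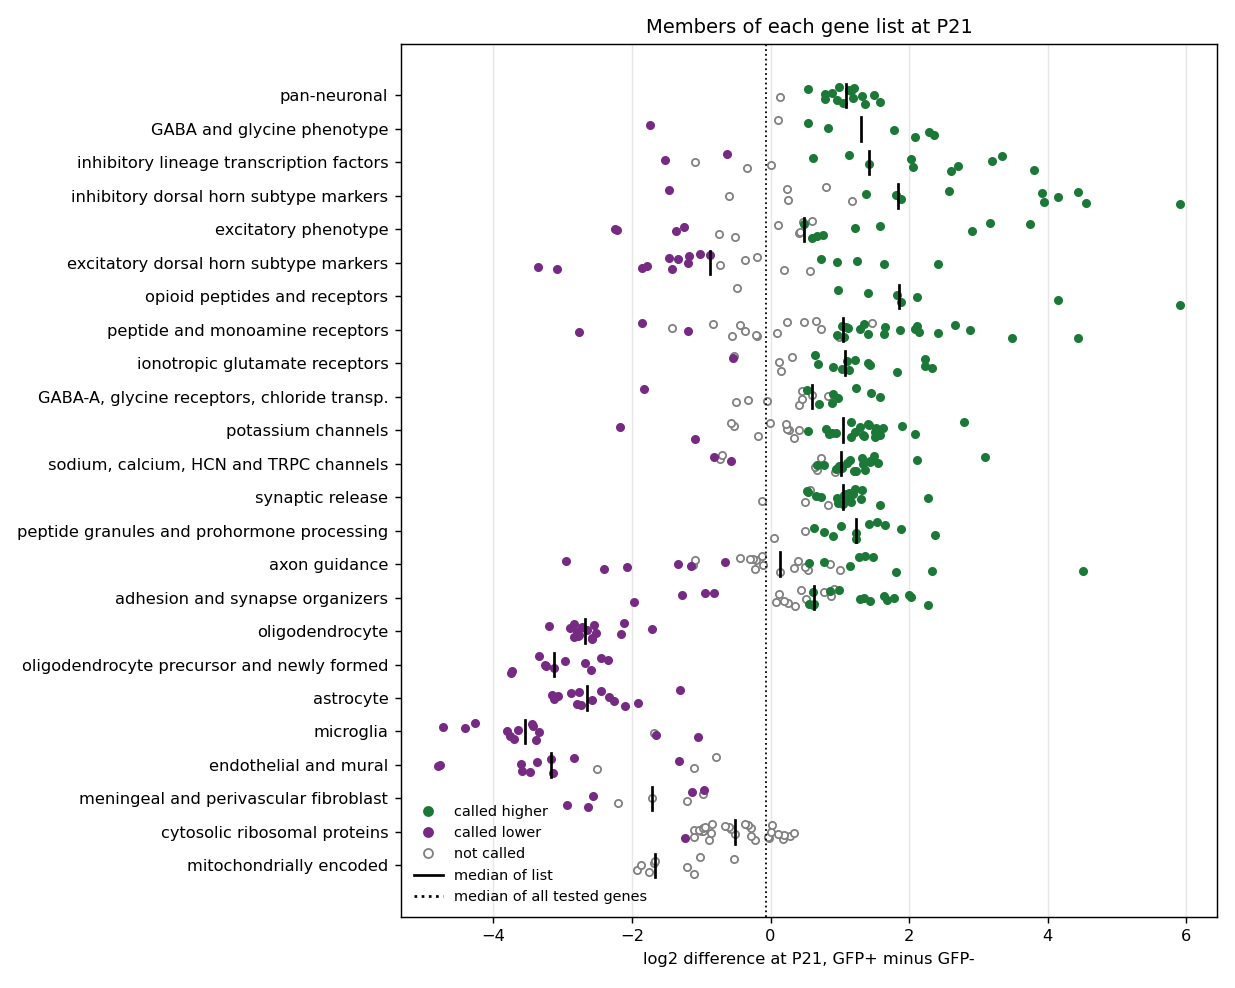
Log2 differences at P21 (horizontal axis) of the tested members of 24 gene lists, with green and purple points for genes called higher and lower, open points for genes not called, a bar at the median of each list and a dotted line at the median of all tested genes (-0.067). Inhibitory and synaptic lists lie mostly to the right and glial lists to the left, while the excitatory lists straddle the line.

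Receptors for peptides and monoamines were higher in 19 of 36 and lower in 3, with a median of 1.05 (17 and 3 without ES16). Beside Sstr2, the somatostatin receptor gene Sstr1 (165, 228 and 238 against 15.9, 19 and 18, 3.49 ± 0.33, adjusted p = 3.11e-07) and the serotonin receptor gene Htr1a (182, 253 and 225 against 17.8, 49.3 and 26.8, 2.88 ± 0.33, adjusted p = 2.45e-06) were highest. Both couple to inhibitory G proteins. The lower members were the neurotensin receptor gene Ntsr2, known from astrocytes, at -2.76 ± 0.34 (adjusted p = 5.24e-06), the neuromedin U receptor gene Nmur2 at -1.20 ± 0.29 (adjusted p = 0.00331) and the muscarinic receptor gene Chrm1 at -1.85 ± 0.52 (adjusted p = 0.00933). Chrm1 was not called without ES15 (adjusted p = 0.0657).

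Ion channels and glutamate receptors were mostly higher. Ionotropic glutamate receptor genes rose in 13 of 18 and fell in 1 (median 1.07, and 11 and 2 without ES16). The kainate receptor genes Grik1 (1589, 1521 and 1581 against 243, 492 and 251, 2.33 ± 0.22) and Grik3 (1179, 1178 and 1241 against 251, 339 and 195, 2.23 ± 0.21) and the NMDA receptor subunit gene Grin2d (1099.9, 882 and 1098 against 165, 312 and 196, 2.23 ± 0.29) moved most, with adjusted p of 3.24e-07, 3.25e-07 and 9.61e-06. All GFP+ values of each lay above all GFP- values. Grin3a was lower at -0.54 ± 0.19 (adjusted p = 0.0384), with overlap, and was called only with all 6 libraries or without ES16. Potassium channel genes rose in 21 of 32 and fell in 2 (median 1.05, and 17 and 2 without ES16). Kcnt2, a sodium-activated channel, read 2186, 2196 and 2365 against 289, 517 and 224 (2.80 ± 0.25, adjusted p = 1.5e-07), and Kcnc2, of fast-spiking neurons, 1892, 1901 and 2062 against 371, 721 and 363 (2.08 ± 0.25, adjusted p = 4.9e-06). The 2 that fell were Kcnj10, the main inward rectifier of glia (-2.17 ± 0.35, adjusted p = 0.000107), and Kcna1 (-1.09 ± 0.28, adjusted p = 0.00444).

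Sodium, calcium, HCN and TRPC channel genes rose in 20 of 28 and fell in 2 (median 1.01, with 17 and 3 without ES16, 13 and 1 without ES12 and 23 and 0 without ES14). Trpc4 was the highest, at 245, 241 and 227 against 22.8, 26.6 and 32.3 (3.09 ± 0.37, adjusted p = 4.2e-06), followed by the calcium channel subunit gene Cacna2d3 at 1108, 1141 and 1181 against 159, 491 and 237 (2.11 ± 0.37, adjusted p = 0.000254). Receptor genes for GABA-A and glycine, listed with chloride transporters, rose in 8 of 17 and fell in 1 (median 0.60), with 5 and 2 without ES16, 5 and 1 without ES12 and 12 and 1 without ES14. Slc12a5, the neuronal chloride extruder KCC2, read 2617, 2614 and 2566 against 801, 1788 and 954 (1.23 ± 0.25, adjusted p = 0.000883), and Slc12a2, the chloride importer NKCC1, 741, 605 and 668 against 3649, 1936 and 1892 (-1.83 ± 0.30, adjusted p = 0.000118). The transporters thus went in opposite directions between the sorted populations, without overlap in either. Slc12a2 was highest in ES12, the library with the highest oligodendrocyte score, and the part of glia in its difference was not tested. The Slc12a5 difference stands beside a pan-neuronal median of 1.09. Relative to pan-neuronal genes, no member of this list was called higher.

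Release and peptide granule genes rose together. Synaptic release genes rose in 18 of 22 and fell in none (median 1.05), and in 12 without ES16. Unc13c, a priming factor of synaptic vesicles, read 3219, 2896 and 3303 against 430.0, 1086 and 590.2 (2.27 ± 0.32, adjusted p = 2.74e-05), and Syt1, a calcium sensor of release, 2743, 3391 and 3064 against 666, 1718 and 942 (1.57 ± 0.30, adjusted p = 0.000442). Genes of peptide granules and prohormone processing were higher in 11 of 13 and lower in none (median 1.23, and 10 without ES16). The granins Scg2 (2578, 2919.9 and 3196 against 478, 718 and 505, 2.37 ± 0.18, adjusted p = 2.67e-08) and Chgb (1422, 1436 and 1741 against 368, 548 and 349.5, 1.88 ± 0.21, adjusted p = 1.91e-06) were the highest, with no overlap between populations. Pan-neuronal genes themselves rose in 15 of 16 (median 1.09, and 13 without ES16), Rbfox3, which encodes the neuronal marker NeuN, by 1.36 ± 0.31 (adjusted p = 0.0019). The pan-neuronal score, lowest in ES12 and highest in ES14 of the GFP- libraries, moved with these families, and its part in the single differences is taken up in the fit relative to pan-neuronal genes.

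Of 31 axon guidance genes 9 were higher and 6 lower, with a median of 0.133 (11 and 8 without ES16). Beside the 18.3% of all tested genes that were lower, the share of lower guidance genes was near the background. Beside Robo3, the ligand gene Slit1 was higher at 2149, 2002 and 2245 against 363, 594 and 354 (2.33 ± 0.21, adjusted p = 2.08e-07). The lower members included Plxnb3, a plexin gene of oligodendrocytes, at -2.95 ± 0.44, the netrin receptor gene Unc5b at -2.41 ± 0.40 and the semaphorin gene Sema3d at -1.33 ± 0.22, with adjusted p of 4.91e-05, 0.000137 and 9.19e-05. Of 29 adhesion and synapse organizer genes 15 were higher and 4 lower (median 0.62, and 11 and 4 without ES16). The share of lower members was not above the background. Nrxn3, a presynaptic neurexin, read 6341, 5999 and 5781 against 920.4, 2084 and 1023 (2.27 ± 0.36, adjusted p = 8.92e-05) and the cadherin gene Cdh8 3099, 2613 and 2904 against 558, 1031 and 602 (2.03 ± 0.22, adjusted p = 1.2e-06). Cbln1, a secreted synapse organizer, went the other way at 13.6, 24.1 and 19 against 96.1, 87.2 and 50.9 (-1.97 ± 0.28, adjusted p = 2.67e-05). Of 11 nitric oxide and cyclic GMP genes, 5 were higher and 2 lower (5 and 2 without ES16), and the share of lower members was again near the background. The phosphodiesterase gene Pde2a was higher at 1.76 ± 0.28 (adjusted p = 7.6e-05), and Pde5a, also of vascular smooth muscle, lower at 34.1, 30.7 and 17 against 53.5, 84.7 and 926 (-2.59 ± 0.68, adjusted p = 0.00645), where ES16 was far above the rest and the value was -1.33 without it and -3.38 without ES12. Hox genes, which mark position along the body axis, rose in 6 of 20 and fell in none (median 0.726), in 5 without ES16 and in 12 without ES14. Relative to pan-neuronal genes, no Hox gene was called higher and 4 were lower (median -0.31), where 65.4% of all genes were lower.

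When pan-neuronal genes served as the yardstick, the medians of several neuronal families came to lie near 0. In this fit the mean of 16 pan-neuronal genes is subtracted in each library, which shifts the median of all genes to -1.10, and 330 of 18598 genes were called higher (1.77%) and 12156 lower (65.4%), or 67.1% in all. Without ES16 the counts were 345 (1.87%) and 9837 (53.3%), or 55.2% in all. All 330 genes were also called higher without the subtraction, and 399 genes called higher there were lower here. The median was 0.0147 for synaptic release genes, where 2 of 22 passed as higher and 3 as lower. It was 0.0134 for potassium channel genes, where 6 of 32 passed as higher and 11 as lower, and 0.0356 for ionotropic glutamate receptor genes, where 4 of 18 passed in each direction. Opioid genes, counted with the sort gene Pdyn, kept a median of 0.818 with 5 of 8 called higher and 1 lower. Inhibitory subtype markers kept 0.807 with 9 of 16 called higher and 3 lower. Gucy2d (5.56 ± 0.45), Pdyn (4.88 ± 0.58), Gal (3.51 ± 0.50), Robo3 (3.48 ± 0.37) and Sstr2 (3.39 ± 0.22) were among the genes called higher, with adjusted p of 9.67e-08, 3e-06, 1.43e-05, 9.1e-07 and 2.36e-09. Gad1 and Gad2 were higher by 1.05 ± 0.19 (adjusted p = 0.000175) and 1.32 ± 0.21 (adjusted p = 3.99e-05). Of the 8 genes of the inhibitory transmitter phenotype, 4 were called higher and 3 lower here (median 0.264). Of 15 transcription factors of inhibitory lineages, 7 were called higher and 5 lower (median 0.388). Markers of excitatory subtypes had a median of -1.91, with 1 of 21 called higher (Tacr3, 1.38 ± 0.27, adjusted p = 0.000342) and 15 lower. Beside the 65.4% of all genes that were lower in this fit, that share of lower markers was near the background. Slc17a6 changed sign to -0.43 ± 0.17 (adjusted p = 0.0309). The GABA-A, glycine receptor and chloride transport list had no member called higher and 7 of 17 lower (median -0.436). Glial transcripts in the GFP- libraries enter these values for any gene that glia also express.

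Most genes of glia and vessels were lower in GFP+ nuclei. All 16 oligodendrocyte genes (median -2.68), all 11 measured genes of precursors and newly formed oligodendrocytes (median -3.12) and all 14 astrocyte genes (median -2.65) fell, also without any 1 of the libraries. The myelin gene Mbp read 3361, 3479.6 and 2999.9 in GFP+ and 35735, 19927 and 10418 in GFP- nuclei (-2.57 ± 0.36, adjusted p = 2.75e-05). In the GFP- libraries Mbp was highest in ES12 and lowest in ES16, and the GFP+ libraries were close to each other. Pdgfra, the receptor that marks precursors, stood at 64.7, 62.4 and 64.1 against 1204, 532 and 1026 (-3.75 ± 0.36, adjusted p = 4.3e-07), and Slc1a2, the glutamate transporter of astrocytes, at 1296, 1325 and 1053 against 9012, 5009 and 3184 (-2.10 ± 0.22, adjusted p = 1.28e-06). Oligodendrocyte transcripts were not absent from GFP+ libraries, where the 16 genes summed to between 10030 and 11970 against 36570 to 129600 in GFP- libraries. Cspg4, the proteoglycan NG2 of precursors and pericytes, was lower at -3.73 ± 0.52 (-3.10 without ES12), the matrix gene Matn4 at -3.84 ± 0.42 and the phospholipase gene Pla2g4a at -3.79 ± 0.39, with adjusted p of 2.29e-05, 1.47e-06 and 6.96e-07.

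Microglia genes fell in 13 of 14 (median -3.54, and 12 without ES16) and endothelial and mural genes in 10 of 13 (median -3.16, and 7 without ES16). Of the 12 lowest differences, 4 belong to genes of microglia and of leukocytes whose level varied among GFP- libraries. Csf1r, a growth factor receptor of microglia, read 26.1, 50.4 and 30.1 against 886, 183 and 577 (-3.70 ± 0.53, adjusted p = 3.33e-05) and the signaling gene Nckap1l 12.5, 28.5 and 7.02 against 489, 94.8 and 416 (-4.20 ± 0.58, adjusted p = 2.04e-05). ES14 was the lowest GFP- library for both, and without it they were at -4.35 and -4.94. Ptprc, the leukocyte antigen CD45, read 6.81, 26.3 and 13 against 301, 65.8 and 1041 (-4.26 ± 0.78, adjusted p = 0.000314), at -5.28 without ES14 and -3.30 without ES16. Kdr, a receptor for vascular endothelial growth factor, had the lowest difference of the ranked genes at 7.95, 16.4 and 1 against 75.3, 84.7 and 1021 (-4.80 ± 1.06, adjusted p = 0.00169). For Kdr, Enpep, Anxa3, Ctss and Chi3l1 the value of ES16 was several times that of the other libraries. Ctss, a protease of microglia and macrophages, read 122, 54.4 and 2918 in GFP- and 25, 13.1 and 12 in GFP+ libraries, and Chi3l1, a secreted chitinase-like protein, 91.1, 70.8 and 3001 and 28.4, 15.3 and 13. Without ES16 the differences became -3.58 for Kdr, -3.17 for Enpep, -2.75 for Anxa3, -2.29 for Ctss and -2.11 for Chi3l1, in place of -4.80, -4.09, -4.13, -4.01 and -3.84, and all 5 were still called. With only the 6 P21 libraries in the fit, however, Ctss and Chi3l1 were not called, nor were they in the authors' deposited table. Leaving out any 1 of the 6 libraries moved Kdr between -5.48 and -3.58, Enpep between -4.76 and -3.17, Anxa3 between -5.23 and -2.75, Ctss between -5.15 and -2.29 and Chi3l1 between -4.80 and -2.11. Kdr moved by more than 1.5-fold without ES12, ES13, ES15 or ES16, Chi3l1 without ES12, ES14 or ES16, and the other 3 without ES14 or ES16.

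Meningeal and perivascular fibroblast genes fell in 5 of 9 (median -1.71), and this count ranged from 1 to 8 when 1 library was left out, with 2 without ES16 or ES11, 3 without ES13, 1 without ES14 or ES15 and 8 without ES12. Mitochondrially encoded genes (median -1.66) were called in 0 of 9 (1 lower without ES12 and 2 without ES14), and without ES16 their median was -0.0817. Of 29 ribosomal protein genes 1 was called, lower (Rpl7, 62.4, 76.7 and 66.2 against 110.0, 82.2 and 469, -1.24 ± 0.39, adjusted p = 0.0172). Without ES16 or ES11 none was, without ES12 6 and without ES14 8 were lower. Without ES16 Rpl7 stood at -0.47 (adjusted p = 0.116), and the median moved from -0.506 to 0.113. Among immediate early genes, 1 of 16 rose and 2 fell (1 and 2 without ES16, 2 and 4 without ES14, 1 and 3 without ES12, and 1 and 1 without ES11, ES13 or ES15). Of all tested genes 14.7% were higher and 18.3% lower, so with all 6 libraries neither share was above the background. Npas4, which neurons induce with activity, was higher at 120.3, 95.3 and 101 against 30.7, 51.8 and 50.3 (1.27 ± 0.22, adjusted p = 0.000205), while Jun was lower at 95.3, 102 and 114 against 234, 135 and 588 (-1.35 ± 0.36, adjusted p = 0.00637), with ES16 the highest library. The authors' deposited table does not call Npas4. Relative to pan-neuronal genes, no immediate early gene was called higher. No tested member of the motor neuron (3), primary sensory neuron (2) or ependymal (5) lists was called by limma, with all 6 libraries or without ES16. Without ES13, 1 motor neuron gene was lower.

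Beside the 438 noncoding genes called higher in all, a stretch of imprinted genes held 43 called features, 2 of them coding. The region from Dlk1 to Mirg on mouse chromosome 12, chosen after its values were seen, holds the paternally expressed genes Dlk1 and Rtl1 and long noncoding transcripts of the maternal chromosome, Meg3, Rian and Mirg, that host small nucleolar RNAs and microRNAs. All 57 tested features had a positive difference, 43 were called higher and none lower, with a median of 1.60 (35 higher without ES16, and 33 to 52 without any 1 library). Of all 18614 tested genes, 14.7% were called higher and 8560 had a positive difference. Features inside host transcripts may share reads with their hosts, so the 57 are not separate observations. Meg3, among the most abundant transcripts of these nuclei, read 221413, 208746 and 211597 against 40520.2, 114396 and 60904 (1.70 ± 0.33, adjusted p = 0.000643). Rian stood at 25232, 23971 and 23779.7 against 5316, 13539.8 and 7203 (1.60 ± 0.30) and Mirg at 3187, 2758 and 3376 against 689.6, 1538 and 942 (1.63 ± 0.30), with adjusted p of 0.000406 and 0.000352. Dlk1 was at 175, 219 and 157 against 15.9, 83.5 and 39.9 (2.24 ± 0.43, adjusted p = 0.000463) and Rtl1 at 1564, 1645 and 1707 against 377, 808 and 466 (1.65 ± 0.29, adjusted p = 0.000193). ES12 had the lowest and ES14 the highest value of the GFP- libraries for each of these 5 genes, as for the pan-neuronal score. Relative to pan-neuronal genes, 11 of the 57 features were called higher and none lower (median 0.566), among them Meg3 at 0.67 ± 0.18 (adjusted p = 0.00274). Of all genes in that fit, 1.77% were called higher.

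**Figure D5:**
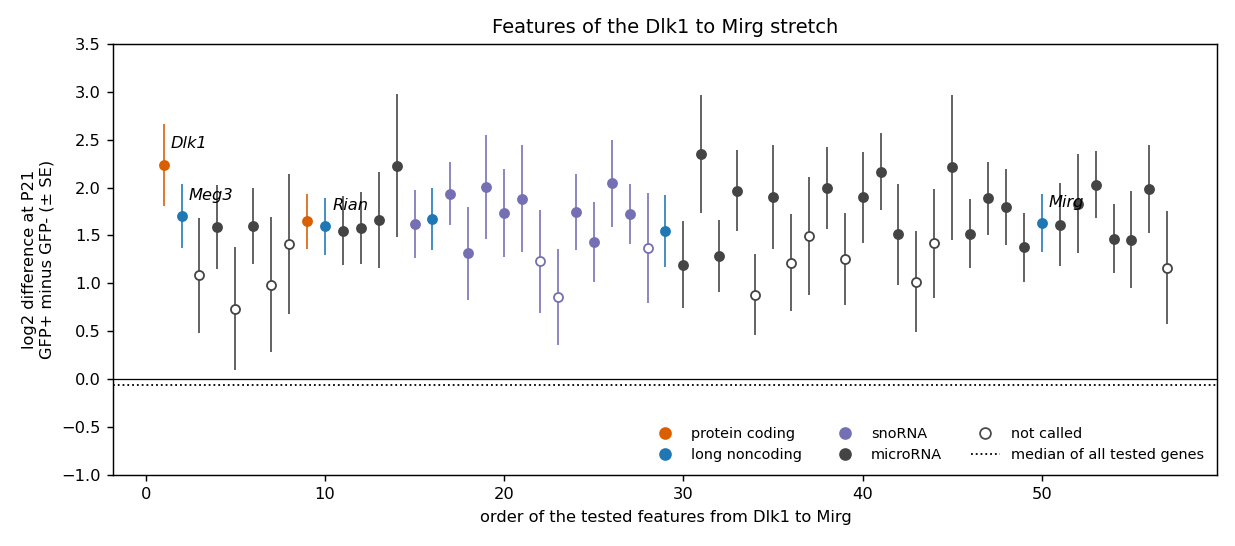
Log2 difference at P21 with its standard error (vertical axis) of the 57 tested features of the Dlk1 to Mirg stretch in their order along the chromosome (horizontal axis), colored by class, with filled points for called features. All 57 lie above 0 and above the median of all tested genes, -0.067.

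Of the 57 features, 37 are microRNA genes, of which 26 were called higher. Elsewhere in the genome 19 of 127 tested microRNA genes were called higher and 4 lower. That share of higher genes was near the 14.7% of all tested genes. The reads were counted to the hairpin genes and those inside Rian and Mirg overlap their hosts, so reads of host and hairpin may be mixed. The sources do not state how overlapping reads were counted, and mature microRNAs were not measured. Of the called hairpin genes of the stretch, 5 with low adjusted p and a microRNA name are shown with a mature product each, as are 2 lower hairpin genes, to let their seeds be compared. Capitals mark the seed, bases 2 to 8, in RefSeq sequences of the GRCm38.p6 table.
mmu-miR-154-5p: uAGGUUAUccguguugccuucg
mmu-miR-666-5p: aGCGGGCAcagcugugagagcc
mmu-miR-487b-5p: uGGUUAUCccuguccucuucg
mmu-miR-494-5p: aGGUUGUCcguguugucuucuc
mmu-miR-539-5p: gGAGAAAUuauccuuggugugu
mmu-miR-338-3p: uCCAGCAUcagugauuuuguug
mmu-miR-219a-5p: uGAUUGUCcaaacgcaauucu
No 2 of these 7 products share a seed. Mir154 read 44.3, 37.2 and 31.1 against 6.94, 7.59 and 10.9 (2.03 ± 0.35, adjusted p = 0.000147), Mir666 36.3, 25.2 and 47.1 against 7.93, 8.85 and 4.92 (2.17 ± 0.40, adjusted p = 0.000347) and Mir494 30.6, 34 and 29.1 against 4.95, 7.59 and 9.3 (1.99 ± 0.43, adjusted p = 0.00115). Mir338 and Mir219-2, known for their part in oligodendrocyte maturation, read 6.81, 2.19 and 8.02 against 58.5, 30.3 and 20.2 (-2.49 ± 0.51, adjusted p = 0.000888) and 10.2, 17.5 and 12 against 104, 39.2 and 31.7 (-1.89 ± 0.55, adjusted p = 0.0119). The last 2 were highest in ES12, the library with the highest oligodendrocyte score. Among other nuclear noncoding RNAs Neat1, a scaffold of nuclear paraspeckles, was lower at 1611, 1289 and 976 against 9203, 5493 and 6756 (-2.46 ± 0.29, adjusted p = 4.58e-06).

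The P21 difference was set against that of the other ages in the same fit, where each age has its own GFP- libraries. The contrast of P21 with the mean of P7 and P80 called 0 of 18614 genes with limma (0%), with 1509 at an unadjusted p under 0.05, and 1 gene without ES16 (0.00542%), lower. On recovered reads edgeR called 0 (2416 unadjusted) and DESeq2 15 (2463 unadjusted), 5 of them the liver or placental genes Alb, Fgb, Serpina1b, Ctsj and Ceacam12. Against P80 alone limma called 0 genes (1359 unadjusted), edgeR 0 and DESeq2 28. Against P7 alone limma called 2 (0.0107%), edgeR 3 and DESeq2 139. The 2 were Spag5, a gene of the mitotic spindle, and Zbtb1, a transcriptional repressor gene. Spag5 was at 55.8 ± 11.6 (SD, n = 4) in GFP+ and 290 ± 76.6 (n = 4) in GFP- nuclei at P7 but at 288, 273 and 377 and 327, 305 and 251 at P21, a change of the difference by 2.43 ± 0.29 (adjusted p = 0.00051). Zbtb1 was at 223 ± 9.45 and 562 ± 70.1 at P7 (SD, n = 4 each) and at 431, 377 and 346 and 516, 451 and 453 at P21, a change of 1.02 ± 0.16 (adjusted p = 0.0209). For each of the 2 the P21 difference itself was not called.

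For the leading genes the contrast of P21 with the other ages did not pass, which does not show that the ages are alike. Gucy2d was at 6.60 ± 0.49 at P21, 5.40 ± 0.42 at P7 and 6.73 ± 0.42 at P80, a contrast of P21 with the other ages of 0.53 ± 0.57 (adjusted p = 0.746). GFP+ nuclei held 206 ± 21.9 (SD, n = 4 libraries of P7), then 706 ± 71.1 (n = 3 libraries of P21) and 773 ± 114 (n = 4 libraries of P80). The P7 range of 184 to 234 lay below every later GFP+ library, while P21 (645 to 784) and P80 (607 to 862) overlapped. Pdyn stood at 6.82 ± 0.61 at P7 and 6.02 ± 0.61 at P80 (contrast -0.51 ± 0.83, adjusted p = 0.84). Robo3 was at 4.16 ± 0.34 and 4.51 ± 0.34 (contrast 0.18 ± 0.46) and Sstr2 at 3.78 ± 0.22 and 3.96 ± 0.22 (contrast 0.56 ± 0.30), with adjusted p of 0.897 and 0.593. The myelin gene Mbp was at -1.83 ± 0.31 at P7 and -4.12 ± 0.31 at P80 (contrast 0.40 ± 0.42, adjusted p = 0.74). Its limma contrast was -0.75 ± 0.48 against P7 alone (adjusted p = 0.509) and 1.55 ± 0.48 against P80 alone (adjusted p = 0.507). These values have opposite signs and partly cancel in the contrast with the mean of both ages. The GFP+ level of Mbp was 3000 to 3480 at P21 and 646 to 815 at P80. The level change between ages is given as values and was not tested here.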

How the data were processed

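RNA of sorted nuclei was sequenced after amplification with a NuGEN SoLo kit (15 PCR cycles), per the labels' protocols. Trim Galore, cutadapt, STAR, HTSeq and DESeq2 appear in the submitters' processing notes, with the build, annotation, strand setting and versions not given in the sources used. In the deposited signal values, each library's gene counts were scaled by the authors with its own size factor, per the file headers. They are whole multiples of 1 step in each library, within 0.01 reads, and gave back the reads counted. The authors' deposited table for P21 also holds their log2 fold changes, their adjusted p-values and, as another column, whether a gene is coding.

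Genes reaching a value of 10 in 3 or more of the 22 libraries (18614 of 21363) were tested with limma 3.58.1 in R 4.3.3 on log2(value + 1), with trend and robust options. All 22 libraries in 6 groups of age and population shared 1 estimate of the spread, and the P21 contrast was read from that fit. An added pseudocount of 1 understates the change of low genes. A second fit subtracted the mean of 16 pan-neuronal genes in each library. For a single gene, 3 against 3 libraries cannot give an exact two-sided permutation p below 0.1. Alternatives were edgeR 4.0.16 and DESeq2 1.42.0 on the recovered reads, TMM factors, other pseudocounts and filters, the P21 libraries alone, 2 other references for the second fit and leaving out each P21 library. The fit was tested on simulated data in which all groups had the same spread. That test does not cover the wider spread of the GFP- libraries.

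Genes named are Pdyn, the 12 highest and 12 lowest called genes of at least median level whose P21 values do not overlap, with no clone, model or microRNA names, the genes at 0 in one population, and called members and landmarks of each list. Genes of the Dlk1 to Mirg stretch other than Meg3, Rian and Mirg, and Alb and Xist, were chosen after their values were seen, as were the liver, placental and hemoglobin lists. All members and lists were chosen with earlier results of these data known. Of 21363 identifiers, 20984 matched GENCODE M21, which gave overlaps between genes. Promoter and microRNA sequences are from RefSeq, GRCm38.p6. Intervals are standard errors over libraries, and amplified reads without molecular identifiers are not independent molecules.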

Additional observations from a re-analysis of the deposited data

Results flagged for a closer look

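The P21 difference of 2 genes departed from that at P7 by the test of the difference itself. Spag5 differed by 2.43 on the log2 scale (limma, adjusted p = 0.00051), with P7 GFP+ libraries at 55.8 ± 11.6 (SD, n = 4) and P21 GFP+ libraries at 288, 273 and 377. Zbtb1 differed by 1.02 (limma, adjusted p = 0.0209), with P7 GFP+ libraries at 223 ± 9.45 (SD, n = 4) and P21 GFP+ libraries at 431, 377 and 346.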

How the results depend on the processing

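No paired analysis was possible because the column names do not say which animal a library came from. Leaving out each P21 library in turn gave 2102 to 3218 higher and 2674 to 4117 lower genes, and relative to pan-neuronal genes 243 to 345 higher and 9837 to 13249 lower. With only the 6 P21 libraries in the fit, 1200 genes were higher and 1529 lower, and the authors' deposited table calls 1148 and 1729. The counts were 2773 and 3365 with TMM factors, 2767 and 4082 with edgeR and 2911 and 4220 with DESeq2. The contrast of P21 with the other ages called 6 genes higher and 9 lower with DESeq2 and, over the libraries left out, 0 to 1 lower with limma. Of 2482 values of named genes under the alternatives, 2330 kept their direction and side of the threshold, 148 fell short of it, 2 passed it and 2 changed sign. Those 2 genes, neither of them called, were Pvalb, at -0.10 without ES11 and up to 0.71 without other libraries, and Tac2, at -0.32 without ES16 and up to 0.50. Calls were lost for 29 named genes with the 6 P21 libraries alone, for 24 in the authors' deposited table, for 10 to 18 when 1 library was left out and for at most 4 under any other alternative. The cause was not tested. Reads of 4438486 to 10849169 per library limit the precision of genes with few reads.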
